A study of Oryza sativa with 4 samples.

Results

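Gibberellin oxidases are the soluble enzymes that carry out the last steps of gibberellin synthesis and the first step of its removal. The 10 rice genes described here were taken by locus name from the 57995 loci of the deposited tables, 6 of them for synthesis (GA20ox1, GA20ox2, GA20ox3, GA20ox4, GA3ox1 and GA3ox2) and 4 for inactivation (GA2ox1, GA2ox3, GA2ox6 and GA2ox9). All 10 were found. The files carry a symbol for 8 of them (GA20ox2 as SD1), and the names GA2ox6 and GA2ox9 rest on the locus alone. A gene table of another rice assembly, ASM3414082v1, holds 2 of the names, GA20ox2 and GA20ox3, each on the same chromosome as in the files.

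Gibberellins are plant hormones that drive stem and leaf elongation, germination and flowering. GA 20-oxidases convert precursors stepwise towards the active hormone, GA 3-oxidases complete it, and GA 2-oxidases hydroxylate active hormone or its precursors into forms that no longer bind the receptor. The active hormone is known to lower transcripts of GA20ox and GA3ox genes and to raise those of several GA2ox genes, so the family takes part in a feedback loop.

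Leaves of 7-day-old rice seedlings (Oryza sativa, genotype Dongjin, a japonica cultivar) were compared after irrigation with 5 mM CysNO, an S-nitrosothiol that donates nitric oxide, in 2 libraries, and with buffer (1 mM HCl) in 2 control libraries. The labels name no other genotype or treatment. All plants were grown at 23 °C in 16 h of light and 8 h of dark. The time between irrigation and harvest, and whether the CysNO solution held the same buffer, are not stated, and there was no cysteine control, so nitric oxide and the carrier molecule cannot be told apart. Whether the replicate libraries are separate plants or repeats of 1 extract is not stated, so the p-values reflect the spread among these libraries, part or all of which may be technical. In whole-leaf RNA, fewer cells of a type and less RNA per cell cannot be told apart either.

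Levels are in FPKM (fragments scaled to transcript length and to the mapped fragments of the library), a measure per length that allows genes to be compared. Each library summed to between 687469 and 732401 FPKM. Read counts are unknown, and the most frequent ratio between libraries over 594 low loci put CysNO 1 at 0.825 and CysNO 2 at 1.08 of the depth of control 1, and control 2 at 1.07. CysNO 1 nevertheless had the fewest loci listed at 0 (30068) and control 2 the most (32002), so these depths are an estimate only. The 4 leaf markers (RBCS2, RBCS3, CAB1R and CAB2R, for photosynthesis proteins) were all present, with summed levels of 2041 and 3095 FPKM in CysNO 1 and 2, against 4072 and 3125 FPKM in control 1 and 2. The 4 markers of dividing cells (CYCB2;1, CYCB2;2, CDKB1;1 and CDKB2;1) summed to 150.1 FPKM in CysNO 1 and 57.6 in CysNO 2, against 69.9 in control 1 and 71.6 in control 2, so CysNO 1 stood apart. The 5 knotted-type homeobox markers of the shoot meristem summed to 11.7 and 14.8 FPKM in CysNO, against 10.2 and 17.8 in control. Of these, OSH1 lay lower in CysNO without overlap (2.59 and 1.17 FPKM, against 3.48 and 6.68 in control). OSH43 lay higher without overlap (1.46 and 1.22 FPKM, against 0.302 and 0.219), and the other 3 overlapped between groups. Also without overlap, 2 of the 4 leaf markers lay lower in CysNO and 2 of the 4 dividing-cell markers higher. Over all tested loci, 21.5% lay higher and 24.9% lower without overlap. None of the 13 markers was at 0 in any library, and none passed the test described next. OSH43 entered that test only through the CysNO libraries.

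A locus was tested where at least 2 of the 4 libraries had 1 FPKM or more, and a call is an adjusted p under 0.05 (limma on log2(FPKM + 1), Benjamini-Hochberg over 21123 loci). Of the 10 oxidases, 7 could be tested, 1 rose (GA2ox9), 1 fell (GA20ox4) and 5 were not called. Over all tested loci 3.27% rose and 0.956% fell, 4.23% in all. The median log2 fold change was -0.22 in the 6 tested oxidases with no library listed at 0 (0.09 with GA3ox2, which has 1) and -0.01 over all tested loci. Without overlap between the groups, 2 tested oxidases lay higher in CysNO, as did 21.5% of all tested loci, and 1 lay lower, as did 24.9%. By side, the median was -0.79 in the 3 tested GA 20-oxidases (-0.66 with GA3ox2) and 1.24 in the 3 tested inactivation genes, as a description with no test. Both genes that changed were above 1 FPKM in all 4 libraries and so did not enter the test through 1 group only.

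**Figure D1:**
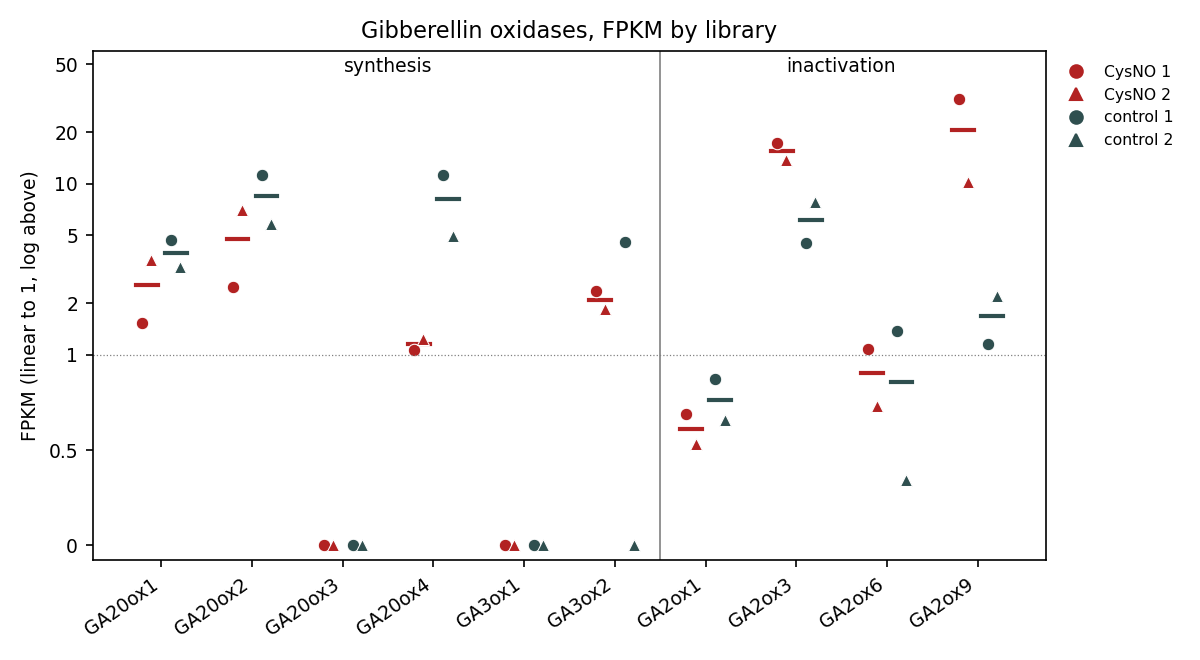
FPKM of the 10 gibberellin oxidases by library, on an axis that is linear up to 1 FPKM and logarithmic above it; points are libraries, and bars are group means where no library of the group is listed at 0. GA20ox4 lies lower in both CysNO libraries than in both controls, GA2ox3 and GA2ox9 lie higher, and GA20ox3 and GA3ox1 are at 0 throughout.

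GA20ox4 was the synthesis gene that fell. It encodes a GA 20-oxidase and lies on the minus strand of chromosome 5 (LOC_Os05g34854, bases 20622787 to 20629715 in the files' coordinates, of an unnamed rice build). GA20ox4 had 1.07 and 1.24 FPKM in CysNO 1 and 2, against 11.2 and 4.99 FPKM in control 1 and 2. The groups did not overlap, and the nearest libraries differed 4.01-fold, more than the controls among themselves (2.25-fold) or the CysNO libraries (1.16-fold). Its mean was 1.16 ± 0.122 FPKM in CysNO and 8.11 ± 4.41 FPKM in control (SD, n = 2 each), a ratio of 0.143. The log2 fold change on the log2(FPKM + 1) scale, which understates changes of low genes, was -1.99 ± 0.40 (SE, 95% interval -2.92 to -1.06; limma, adjusted p = 0.0381). The fold change stayed at -1.99 with quantile normalization, -1.98 with median centring, -1.99 with no filter on low values and -1.99 with a block for replicate number. The call was lost in each of these (limma, adjusted p = 0.0627, 0.0673, 0.205 and 0.119). It was also lost without control 1 (log2 fold change -1.47; limma, adjusted p = 0.0879), without CysNO 1 (0.391) and without CysNO 2 (0.274), in a range of 0.00582 to 0.391 over 9 alternatives.

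The other GA 20-oxidases were not called. GA20ox2 (LOC_Os01g66100, chromosome 1, bases 38381339 to 38384461, plus strand) is SD1, the semidwarf gene whose loss gives short rice varieties. It had 2.49 and 6.99 FPKM in CysNO, against 11.3 and 5.80 FPKM in control. CysNO 2 was above control 2, so the groups overlapped, and the log2 fold change of -0.79 ± 0.47 (SE; 95% interval -1.89 to 0.31; limma, adjusted p = 0.461) leaves room for no change or for a large fall. GA20ox1 (LOC_Os03g63970, chromosome 3, bases 36143590 to 36145443, plus strand), a paralog that also contributes to shoot growth, had 1.53 and 3.61 FPKM in CysNO, against 4.68 and 3.26 FPKM in control. It also overlapped between groups, with a log2 fold change of -0.53 ± 0.38 (SE; 95% interval -1.42 to 0.37; limma, adjusted p = 0.567). In both genes CysNO 1 was the lowest and control 1 the highest library. GA20ox3 (LOC_Os07g07420, chromosome 7), a paralog known from anthers and pollen, was listed at 0 in all 4 libraries and was not tested.

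Summed over the 4 GA 20-oxidase genes, the level was 5.09 FPKM in CysNO 1 and 11.8 in CysNO 2, against 27.2 in control 1 and 14.0 in control 2. GA20ox4 made up 21.1% and 10.5% of that sum in the CysNO libraries and 41.3% and 35.5% in the controls. The summed leaf markers ran in the same order over the 4 libraries, lowest in CysNO 1 and highest in control 1. Singly, RBCS3 and CAB2R kept that order, and RBCS2 and CAB1R did not. The part of the leaf markers in the GA20ox levels was not tested.

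The 2 GA 3-oxidases gave little signal. GA3ox2 (LOC_Os01g08220, chromosome 1, bases 4002659 to 4003946, minus strand), the D18 gene, is the GA 3-oxidase of vegetative growth in rice. It had 2.37 and 1.84 FPKM in CysNO, against 4.56 FPKM in control 1 and a listed 0 in control 2. The controls thus lay on either side of both CysNO libraries, and no mean or fold is given because a listed 0 can be a failed estimate (limma, adjusted p = 0.86). GA3ox1 (LOC_Os05g08540, chromosome 5), which is expressed mainly in flowers, was listed at 0 in all 4 libraries.

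Among the inactivation genes, GA2ox9 rose, with the largest log2 fold change of the 7 tested oxidases. GA2ox9 (LOC_Os02g41954, chromosome 2, bases 25193517 to 25197873, minus strand) encodes a GA 2-oxidase of the subclass that acts on precursors of the active hormone. It had 31.2 and 10.2 FPKM in CysNO 1 and 2, against 1.15 and 2.20 FPKM in control 1 and 2. Both CysNO libraries were above both controls, by 4.64-fold between the nearest libraries, although the CysNO libraries themselves differed 3.05-fold. Its mean was 20.7 ± 14.8 FPKM in CysNO and 1.68 ± 0.742 FPKM in control (SD, n = 2 each), a ratio of 12.3. The log2 fold change was 2.85 ± 0.50 (SE; 95% interval 1.67 to 4.04; limma, adjusted p = 0.027). With a block for replicate number, GA2ox9 was not called (limma, adjusted p = 0.116).

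The call for GA2ox9 was lost with quantile normalization (limma, adjusted p = 0.0601), with median centring (0.0666), with no filter on low values (0.194), without CysNO 1 (0.285) and without CysNO 2 (0.198), in a range of 0.00949 to 0.285 over 10 alternatives. It held without either control. CysNO 1, the library with the highest GA2ox9 level, also had the highest sum of dividing-cell markers, and without it the log2 fold change of GA2ox9 was 2.10. In CysNO 2 those markers summed to less than in either control, and GA2ox9 was at 10.2 FPKM. Singly, CYCB2;1 and CDKB2;1 were below both controls in CysNO 2, and CYCB2;2 and CDKB1;1 were above both. The part of dividing cells in the GA2ox9 level was not tested.

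GA2ox3 (LOC_Os01g55240, chromosome 1, bases 31794061 to 31796599, plus strand), a GA 2-oxidase of the subclass that acts on active hormone, was not called. It had 17.3 and 13.7 FPKM in CysNO, against 4.51 and 7.79 FPKM in control. The groups did not overlap, as at 46.4% of all tested loci, and the gap between the nearest libraries (1.77-fold) was about as large as that between the controls (1.73-fold). Its mean was 15.5 ± 2.53 FPKM in CysNO and 6.15 ± 2.31 FPKM in control (SD, n = 2 each), with a log2 fold change of 1.24 ± 0.33 (SE; 95% interval 0.48 to 2.00; limma, adjusted p = 0.0879). It passed in 1 of 10 alternatives, without control 2 (1.58; limma, adjusted p = 0.0402), where the spread comes from the CysNO libraries alone, and the adjusted p reached 0.481 in the others.

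GA2ox6 and GA2ox1 were near the lower limit of the test. GA2ox6 (LOC_Os04g44150, chromosome 4, bases 25945581 to 25949230, minus strand) belongs to the same precursor-directed subclass as GA2ox9. It had 1.08 and 0.731 FPKM in CysNO, against 1.37 and 0.342 FPKM in control, so the groups overlapped fully (log2 fold change 0.09 ± 0.38, SE; 95% interval -0.80 to 0.98; limma, adjusted p = 0.948). The sign of that value changed with quantile normalization and when CysNO 1 or control 2 was left out. GA2ox1 (LOC_Os05g06670, chromosome 5, bases 3459593 to 3465968, plus strand) had 0.692 and 0.531 FPKM in CysNO, against 0.872 and 0.657 FPKM in control, too low to be tested. It was the 1 oxidase that overlapped another locus of the files. LOC_Os05g06680 runs on the opposite strand over 2643 bp of it (bases 3463326 to 3465968) and had 1.31 and 1.15 FPKM in CysNO, against 1.02 and 0.72 FPKM in control. Whether strand was used in counting is not stated, so reads from the shared stretch cannot be assigned.

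**Figure D2:**
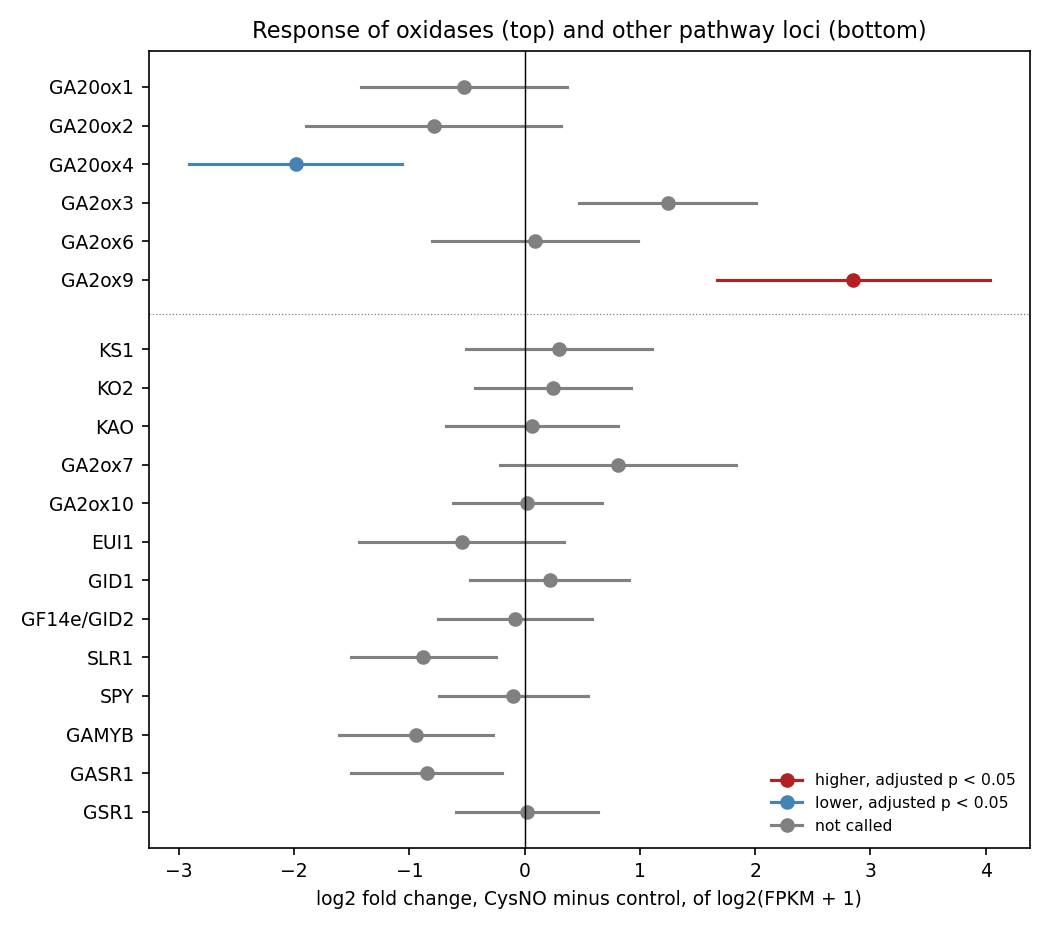
Log2 fold change of log2(FPKM + 1), CysNO minus control, with 95% intervals from limma, for the tested gibberellin oxidases (top) and other tested pathway loci (bottom) that were above 0 in all 4 libraries. GA2ox9 (2.85) and GA20ox4 (-1.99) are the loci called at an adjusted p under 0.05; the intervals of GA2ox3, SLR1, GAMYB and GASR1 exclude 0 without adjustment for the number of loci.

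The order of the levels differed between the groups. In CysNO leaves GA2ox9 and GA2ox3 had the highest levels and overlapped each other, at 10.2 to 31.2 and 13.7 to 17.3 FPKM, and GA2ox3 lay above GA20ox2, the next gene. GA20ox2, GA20ox1 and GA3ox2 followed, each overlapping its neighbour, and GA20ox4, GA2ox6 and GA2ox1 were lowest. In control leaves GA20ox2 (5.80 to 11.3 FPKM), GA20ox4 (4.99 to 11.2 FPKM), GA2ox3 (4.51 to 7.79 FPKM) and GA20ox1 (3.26 to 4.68 FPKM) came first, and each overlapped the next. GA2ox9, GA2ox6 and GA2ox1 were lowest in control, and GA3ox2 cannot be placed there because of its listed 0.

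Set against each other, the inactivation oxidases were above the synthesis oxidases in both CysNO libraries and below them in both controls. The 4 inactivation genes summed to 50.3 FPKM in CysNO 1 and 25.2 in CysNO 2, against 7.91 in control 1 and 10.99 in control 2. The 6 synthesis genes summed to 7.46 FPKM in CysNO 1 and 13.7 in CysNO 2, against 31.7 in control 1 and 14.0 in control 2, with GA3ox2 counted as listed. The gap between the groups was wide for inactivation and narrow for synthesis, where CysNO 2 and control 2 nearly met.

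The ratio of inactivation to synthesis was 6.73 in CysNO 1 and 1.84 in CysNO 2, against 0.249 in control 1 and 0.782 in control 2. The mean of its log2 was 1.82 in CysNO and -1.18 in control, a difference of 2.996 where libraries of a group had an SD of 1.25. No p is given for this sum over chosen genes. GA2ox9 made up 62.0% and 40.5% of the inactivation sum in CysNO, against 14.6% and 20.05% in control. GA2ox3 made up 34.5% and 54.5% in CysNO, against 57.0% and 70.9% in control. GA2ox9 was thus the larger of the 2 in CysNO 1, and GA2ox3 in the other libraries. Without GA2ox9 and GA20ox2, the genes with the highest mean over all 4 libraries on each side, the difference was 2.31. The ratio was then 3.84 in CysNO 1 and 2.24 in CysNO 2, against 0.330 in control 1 and 1.06 in control 2. Inactivation was thus no longer below synthesis in control 2, at 8.78 against 8.25 FPKM. That depends on GA3ox2, which was counted there as its listed 0.

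**Figure D3:**
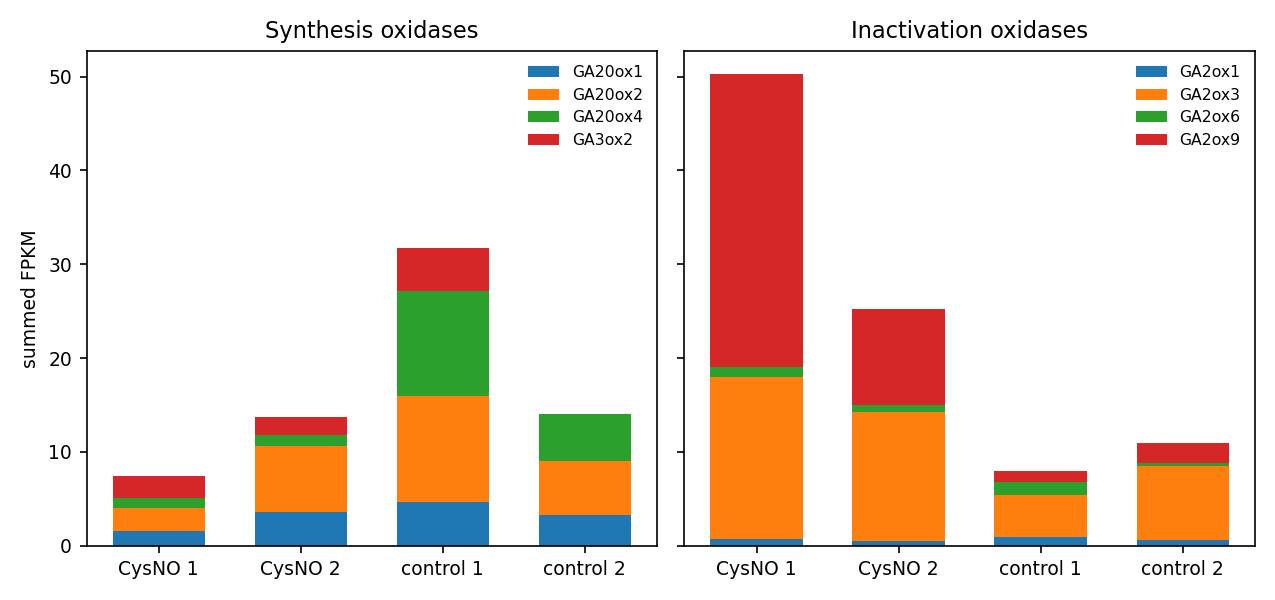
Summed FPKM of the synthesis oxidases (left) and inactivation oxidases (right) in each library, stacked by gene; genes listed at 0 in all libraries are not shown. GA2ox9 and GA2ox3 make up most of the inactivation sum of 50.3 FPKM in CysNO 1 and 25.2 FPKM in CysNO 2.

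That ratio depends on which 2-oxidases are counted. The locus taken as GA2ox10 (LOC_Os05g11810) was far more abundant than any of the 10 genes, at 101.9 and 93.8 FPKM in CysNO, against 83.9 and 110.2 FPKM in control (log2 fold change 0.02 ± 0.28, SE, with a sign that changed with quantile normalization; limma, adjusted p = 0.982). The 6 other GA 2-oxidase loci added to the inactivation sum were GA2ox2 (listed at 0 throughout), GA2ox4, GA2ox5, GA2ox7, GA2ox8 and GA2ox10. LOC_Os01g22910 was left out, at 0.567 and 0.667 FPKM in CysNO, against 0.162 and 0.139 FPKM in control. With these 6 loci added, the ratio was 23.8 in CysNO 1 and 10.2 in CysNO 2, against 3.12 in control 1 and 9.79 in control 2. CysNO 2 and control 2 were then close, and the difference of the log2 means shrank to 1.49.

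**Figure D4:**
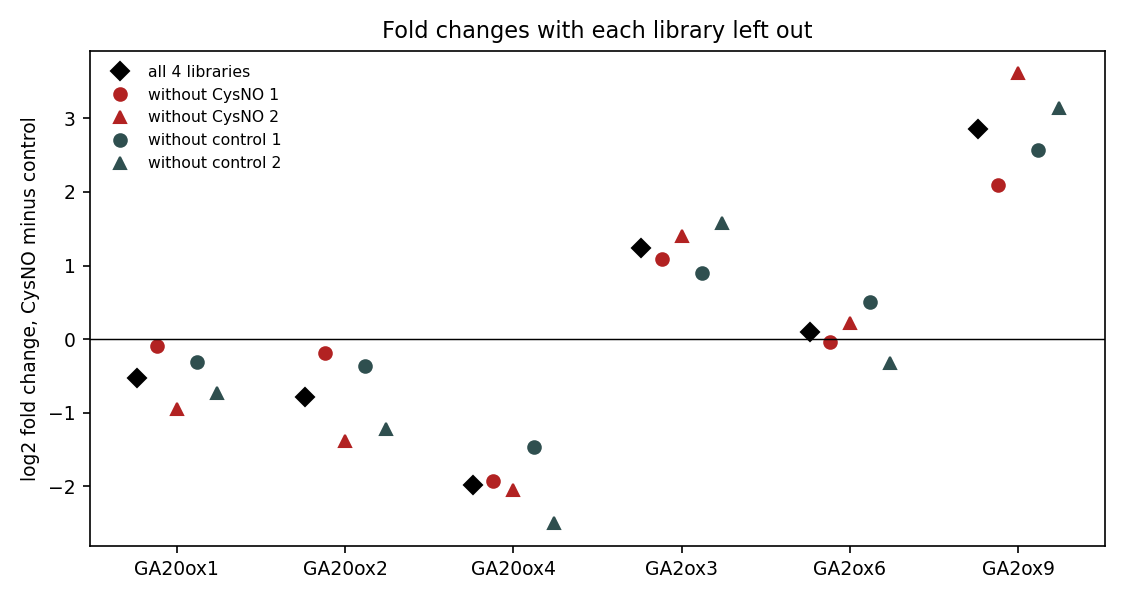
Log2 fold change, CysNO minus control, of the 6 tested oxidases above 0 in every library, with all 4 libraries and with each left out in turn. GA20ox4 stays between -2.50 and -1.47 and GA2ox9 between 2.10 and 3.61, GA2ox3 stays above 0, and GA2ox6 changes sign.

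The rest of the pathway was read from 18 further loci. Of these, 14 were tested and 0 were called in either direction with limma (background 4.23%), as in each alternative but 1. With the crossed replicate pairing, chosen after the data were seen, 3 were called, 1 higher and 2 lower, where 2831 of all tested loci were called. At an unadjusted limma p under 0.05 there were 4 of 14 (1 higher, 3 lower), where 18.1% of all tested loci reached it. The 1 higher locus was GA2ox4, which entered the test only through the CysNO libraries. Of the 13 tested loci with no library listed at 0, 3 reached it (0 higher, 3 lower). The median log2 fold change was 0.02 in the tested loci, also in the 13 with no library listed at 0. Of the 4 early synthesis genes, which build the gibberellin skeleton, KS1, KO2 and KAO were tested and had log2 fold changes of 0.30, 0.25 and 0.06 (limma, adjusted p of 0.76, 0.761 and 0.956), the first and last with signs that changed when control 2 was left out. KO2, for ent-kaurene oxidase, was the most abundant of them, with 7.36 and 7.84 FPKM in CysNO, against 7.20 and 5.37 FPKM in control. The first enzyme gene, CPS1, was too low to test, at 0.491 and 0.155 FPKM in CysNO, against 0.299 and 0.868 FPKM in control.

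Of the other GA 2-oxidase loci, GA2ox4 had 2.82 and 1.41 FPKM in CysNO, against 0.25 FPKM in control 1 and a listed 0 in control 2. It entered the test only through the CysNO libraries and was not called (limma, adjusted p = 0.0793). GA2ox7 had 21.9 and 13.9 FPKM in CysNO, against 5.91 and 15.1 FPKM in control, and the groups overlapped. GA2ox8 had 0.845 and 4.50 FPKM in CysNO, against 0.664 and 0.826 FPKM in control, and was not tested. EUI1, for a cytochrome P450 that inactivates gibberellins by epoxidation, had 4.37 and 9.94 FPKM in CysNO, against 9.59 and 10.8 FPKM in control (limma, adjusted p = 0.544).

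In signalling, SLR1, the DELLA protein gene that represses gibberellin responses, had 88.9 and 95.2 FPKM in CysNO, against 160.4 and 180.0 FPKM in control. The groups did not overlap, but the log2 fold change was -0.88 ± 0.27 (SE) and not called (limma, adjusted p = 0.133). GAMYB, a transcription factor gene of the gibberellin response known from aleurone and anthers, had 2.94 and 2.77 FPKM in CysNO, against 6.14 and 6.71 FPKM in control (limma, adjusted p = 0.131). GID1, for the gibberellin receptor, had 123.8 and 172.9 FPKM in CysNO, against 132.4 and 119.2 FPKM in control (limma, adjusted p = 0.805). The F-box gene GID2 could not be read on its own, because the files give the locus listed for it (LOC_Os02g36974) the symbol GF14e. Which of the 2 genes its values describe is not settled. Gene table entries under either name lie on chromosome 2, but their positions were not compared. Of 2 gibberellin-stimulated genes, GASR1 had 59.4 and 62.1 FPKM in CysNO, against 93.9 and 129.7 FPKM in control, without overlap and without a call (limma, adjusted p = 0.163). GSR1 had 51.6 and 40.2 FPKM in CysNO, against 46.1 and 43.5 FPKM in control, with overlap.

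Among 392 other tested loci with a symbol, those nearest to each changed oxidase were found by the Euclidean distance between their centred log2(FPKM + 1) values over the 4 libraries. Nearest to GA20ox4 were ABA8ox1 (distance 0.28), for an abscisic acid 8'-hydroxylase, CHL (0.306) and iaa25 (0.55). ABA8ox1 had 38.5 and 49.0 FPKM in CysNO, against 223.3 and 101.4 FPKM in control, with control 1 the highest as in GA20ox4 (limma, adjusted p = 0.0567). Nearest to GA2ox9 were iaa9 (distance 0.417), gh3.8 (0.572) and bhlh36 (0.577). In each of these 3 loci, CysNO 1 was the highest library, as in GA2ox9. Of the nearest loci, CHL (limma, adjusted p = 0.046), iaa9 (0.0116), gh3.8 (0.0168) and bhlh36 (0.00803) were called, and iaa25 was not (0.0829). Both iaa9 (0.445 and 0.679 FPKM in control 1 and 2) and bhlh36 (a listed 0 and 0.185) entered the test only through CysNO. The loci were chosen by their values in these same libraries, so a shared highest library is no separate result. With 4 libraries such a likeness is a description only.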

How the data were processed

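RNA of 4 leaf libraries was sequenced as 100 bp pairs after poly(A) selection, per the labels' protocols. The authors' deposited tables hold FPKM, per the file headers, with 1 value for each locus in each library. Bowtie 0.12.2 and mm8, a mouse build at odds with the rice loci, are named in the submitters' processing notes. The sources used here do not give the counting program, the rice build, or how strand and reads shared by similar genes were handled. Depth is unknown, so no count test or counting interval was used, and relative depth was read from loci between 0.01 and 0.3 FPKM (kernel bandwidth 0.03 on the log2 scale).

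A locus entered the test at 1 FPKM or more in 2 or more libraries. The test was limma (version 3.58.1, R 4.3.3) on values of log2(FPKM + 1) (group as the only term, mean-variance trend, two-sided, Benjamini-Hochberg over 21123 loci, threshold 0.05). The script was tested on simulated data, in which no locus had a baseline as low as the mean levels of GA20ox4 and GA2ox9. A permutation of 2 against 2 libraries cannot go below p = 0.333 and was not used. Alternatives were 2 scalings, a pseudocount of 0.1, no filter, a filter of 5 FPKM, a replicate block and each library left out. Adding the other GA 2-oxidases to the sum and a crossed block were chosen after the data were seen, and ranges over alternatives for single genes leave out the crossed block.

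The members and lists were chosen with earlier results of these data known. Named were all 10 oxidases, pathway loci that passed or the most abundant of each role, and the 3 nearest loci of each changed oxidase. CPS1, KS1, KAO, GA2ox4, GA2ox7, GA2ox8, GF14e/GID2, GAMYB, GSR1, SPY and SLR1 are named beyond that rule, after their values were seen. Of the 18 pathway loci, LOC_Os01g22910 had been listed as GA2ox2, a symbol that the files give to its neighbour LOC_Os01g22920, which is listed at 0 throughout. Names of GA2ox5, GA2ox7, GA2ox8, GA2ox10, GSR1 and the markers other than OSH1 rest on general knowledge.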

Additional observations from a re-analysis of the deposited data

How the results depend on the processing

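The number of loci called moved with the processing, at 480 with quantile normalization, 449 with median centring, 2 with no filter on low values and 0 to 1300 with a library left out, against 893 as reported. The 2 oxidases called became 0 with quantile normalization, with median centring and with no filter, 1 with the filter of 5 FPKM, which GA20ox4 did not enter, and 0 to 3 with a library left out. Both kept their sign in each alternative that tested them, and their log2 fold changes moved little under the scalings, while limma's prior degrees of freedom were 3.54 (quantile) and 3.35 (median centring), against 5.36. A fit without 1 library takes the spread of the lone library from the other group. With the replicate block 55 loci and 0 oxidases were called, so both calls were lost (limma, adjusted p = 0.119 for GA20ox4 and 0.116 for GA2ox9). The numbers are not stated to pair the plants, and deviations of same-numbered libraries correlated at -0.186. With the crossed pairing, chosen after the data were seen, 2831 loci, 3 oxidases and 3 pathway loci were called.

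Signs changed in some loci that were not called with all 4 libraries. Quantile normalization gave -0.022 for GA2ox6, -0.13 for GA2ox10 and -0.082 for GSR1. With a library left out, log2 fold changes ranged from -0.32 to 0.50 for GA2ox6, -0.020 to 0.61 for KS1, -0.11 to 0.24 for KAO, -0.17 to 0.22 for GA2ox10, -0.021 to 0.46 for GID1, -0.29 to 0.12 for the GF14e/GID2 locus, -0.29 to 0.10 for SPY and -0.15 to 0.20 for GSR1. The difference between the groups in log2 inactivation over synthesis was 2.06 to 3.93 with a library left out, and 1.49 with the other 2-oxidases added, against 2.996. The cause of these shifts was not tested.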
